A study of Mus musculus with 27 samples.

Results

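The striatum of adult mice that lack an enhancer near Igf2 was compared with the striatum of wild-type mice by RNA sequencing. The comparison used every library whose label names striatum, which is 15 of the 27 mouse libraries of the series: 8 from Igf2enh-/- mice (4 females and 4 males) and 7 from wild-type mice (3 females and 4 males). All were of the 129S1 strain background and about 2.5 months old. The Igf2enh-/- mice were homozygous for the loss of a 4920-bp intergenic fragment between H19 and Igf2, and 1 loxP site was left behind after removal of the selection cassette with an Hprt-CRE transgene. The control mice carried both normal alleles. The deletion is constitutive and not restricted to a cell type or to adult life. RNA came from homogenized tissue, in which fewer cells of a type and less RNA per cell cannot be told apart. The labels do not say whether a striatal and a cortical library came from the same mouse, and the numbers used below for libraries are those at the front of their titles.

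Igf2 encodes insulin-like growth factor 2, a secreted growth factor that is imprinted in most tissues and is known in the adult brain to be made mainly by the choroid plexus and the meninges. Enhancers around H19 are known to serve both H19 and Igf2. Th, the gene of the rate-limiting enzyme of dopamine synthesis, lies further along the same chromosome. The striatum receives dopamine from axons whose cell bodies lie in the midbrain. Its own main cell type is the medium spiny neuron, which carries dopamine receptors.

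The 3 genotyping primers of the study mark the deleted piece and are shown because they define the genotypes compared. In the NCBIM37 build the fragment lies at chr7:149796331-149801250. The primer named IGKOwtU lies inside it, and the other two flank it at distances of 61 and 249 bp. All are given 5′ to 3′ in lower case.
IGKOCrerecU (chr7:149801499-149801520, minus strand): cggaatgtttgtgtggagagca
IGKOwtU (chr7:149796510-149796530, minus strand): taggggtcctgaagacgtcag
IGKOCreWTL (chr7:149796249-149796270, plus strand): ttggtgtagcaccctgtaaccc

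Libraries held between 23686945 and 33926904 counted reads, so that 1 CPM (a count scaled to the library total) stood for 23.7 to 33.9 reads. Genes with at least 1 CPM in every striatal library were tested, 13875 in all. Levels are CPM after scaling by the trimmed mean of M-values (TMM), and a positive log2 fold change means a higher level in Igf2enh-/- mice. The libraries were not alike in their levels of cell type markers. The summed level of 19 choroid plexus genes was 4952 CPM in library 15, an Igf2enh-/- female, and between 216 and 404 CPM in the other libraries. Ttr, the transthyretin gene that marks choroid plexus epithelium, stood at 3102 CPM in library 15 and at no more than 34.9 CPM elsewhere. Library 20, a wild-type male, had the lowest sum of 30 medium spiny neuron genes, 5494 CPM against 7865 to 14316 CPM in the others. It also had the highest sum of 21 cortical projection neuron genes, 7747 CPM against 4492 to 6555 CPM in the others. Striatal tissue was present in every library: the lowest level of Drd1, the dopamine D1 receptor, was 143 CPM, and that of Drd2, the D2 receptor, was 135 CPM, both in library 20. Values are over all 15 libraries unless the 13 libraries without libraries 15 and 20 are named, and calls are given for both.

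**Figure D1:**
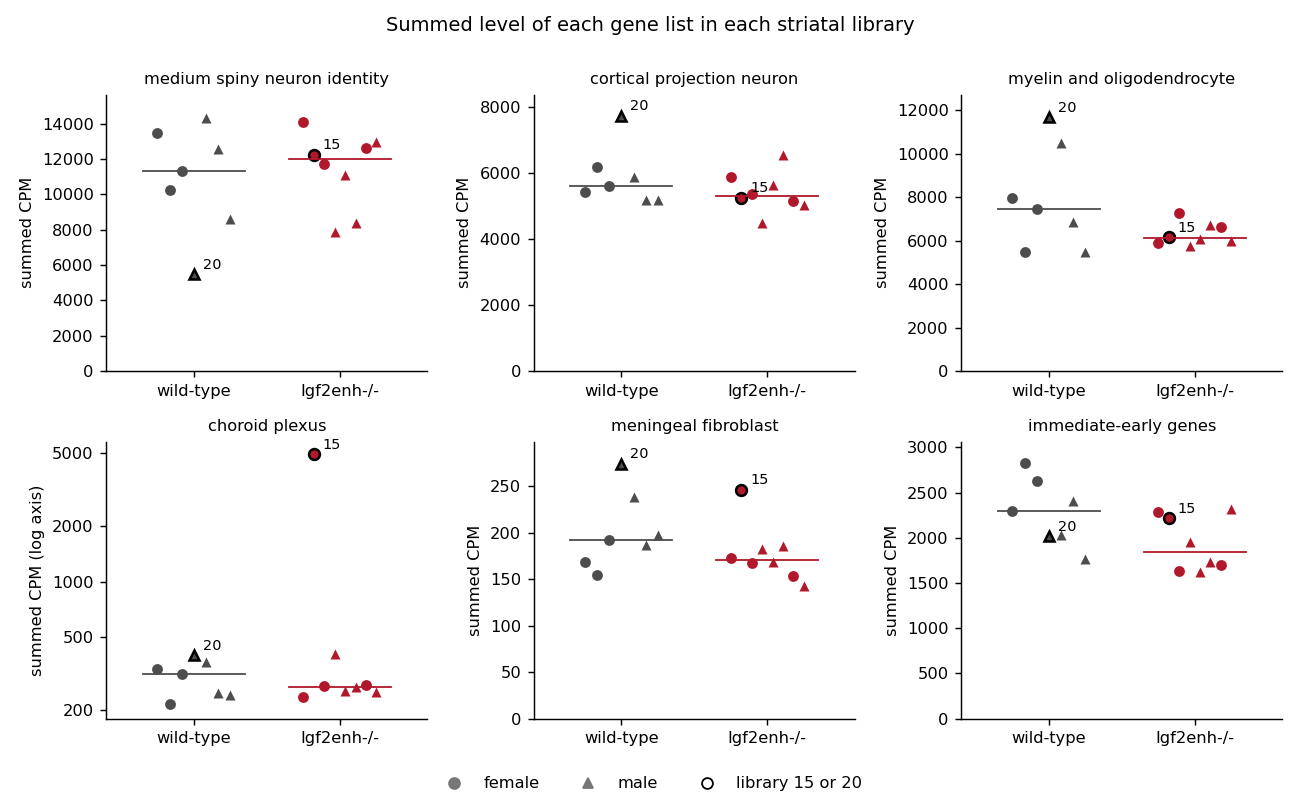
Summed TMM-normalized CPM of the members of 6 gene lists (vertical axis) in each striatal library, by genotype (horizontal axis), with females as circles, males as triangles, group medians as lines and libraries 15 and 20 outlined. The choroid plexus panel has a log axis and sets library 15 at 4952 CPM above all others. Library 20 is lowest for medium spiny neuron genes and highest for cortical projection neuron and myelin genes. Igf2 is left out of the meningeal list.

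Igf2 was higher in the striatum of Igf2enh-/- mice. Its level was 44.2, 36.4, 43.1, 34, 39.4, 35.4 and 37.4 CPM in wild-type libraries 14, 16, 18, 20, 22, 24 and 26. In Igf2enh-/- libraries 13, 15, 17, 19, 21, 23, 25 and 27 it was 58.4, 263, 61.6, 49.9, 52.7, 51.1, 49.0 and 46.7 CPM. All 8 Igf2enh-/- libraries stood above all 7 wild-type libraries, and library 15, the one with choroid plexus transcripts, stood far above the rest. Over all 15 libraries the log2 fold change was 0.89, its standard error 0.326 and its adjusted p 0.386 by the quasi-likelihood test of edgeR. Without libraries 15 and 20 it was 0.44 (standard error 0.0624) and Igf2 rose, with an adjusted p of 0.0198 by the same method. An exact two-sided permutation test of the mean log2 CPM, which takes no account of sex, gave p = 0.000622 over 15 libraries and p = 0.000583 over 13, the latter being the smallest that 1716 splits allow. Without library 20 the wild-type mean was 39.3 ± 3.63 CPM (SD, n = 6), and the mean of Igf2enh-/- mice without library 15 was 52.8 ± 5.36 CPM (SD, n = 7). The call in the 13 libraries was lost when any 1 of libraries 17, 18, 19, 21, 23 or 24 was also left out, and without the sex term, with adjusted p up to 0.0983 in edgeR. The meningeal genes other than Igf2 summed to 143 to 246 CPM in Igf2enh-/- libraries and 155 to 274 CPM in wild-type libraries, and their part in the Igf2 difference was not tested.

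Other genes of the insulin-like growth factor pathway gave no call. Of 21 genes listed, 17 were tested, and none but Igf2 passed in either fit. At an unadjusted p under 0.05, Igf2 and Igf2r were higher and Igfbp4 was lower, and the median log2 fold change of the list was 0.01, against 0.0004 for all genes tested. Over 13 libraries 2 were higher, Igf2 and Igf1r in place of Igf2r, and 1 was lower, Igfbp4. Of all genes tested, 4.94% were higher and 5.10% lower at this unadjusted p. Igfbp4, a secreted protein that binds the growth factors, ran from 48.4 to 66.3 CPM (median 62.8) in wild-type and from 39.7 to 58.6 CPM (median 50.8) in Igf2enh-/- libraries. Its groups overlapped, with 4 of 8 Igf2enh-/- libraries below every wild-type library and a log2 fold change of -0.27 in both fits (adjusted p = 0.364 over 15 libraries and 0.435 over 13 in edgeR). Igf2r, the receptor that takes up and degrades the ligand, had a log2 fold change of 0.15 and Igf1r, the main signalling receptor, of 0.12, with adjusted p of 0.444 and 0.558 in edgeR. Insr, the insulin receptor, stood at medians of 59.4 CPM in wild-type and 58.6 CPM in Igf2enh-/- libraries.

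**Figure D2:**
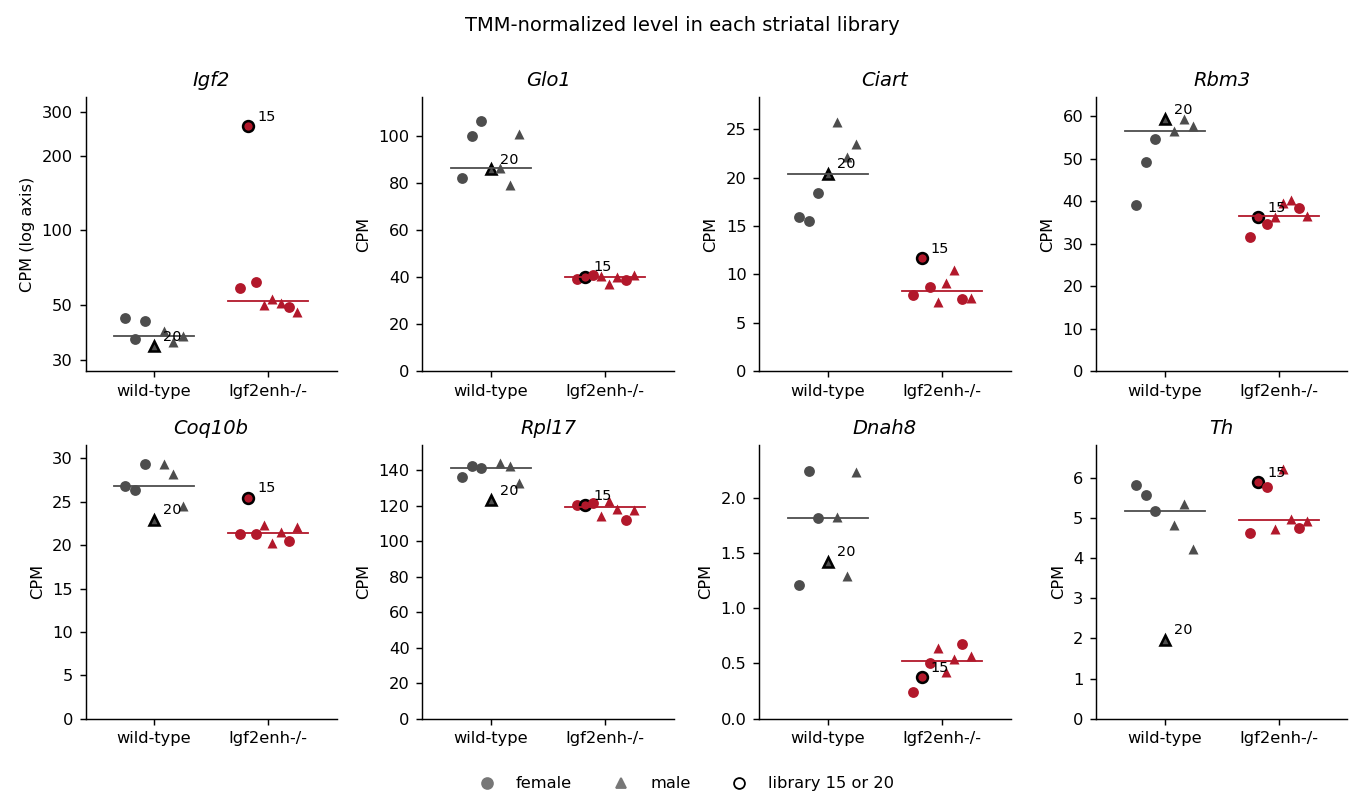
TMM-normalized CPM (vertical axis) of 8 genes in each striatal library, by genotype (horizontal axis), with females as circles, males as triangles, group medians as lines and libraries 15 and 20 outlined. The Igf2 panel has a log axis, on which all Igf2enh-/- libraries lie above all wild-type libraries. Glo1, Ciart and Dnah8 do not overlap between genotypes, and Th overlaps.

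Around the deletion, no tested gene but Igf2 passed in either fit. Within 1000 kb of the middle of the fragment 17 genes were tested, 6 of them higher and 11 lower. The smallest p among them belonged to Lsp1, a leukocyte cytoskeletal protein gene whose start is 152 kb from the fragment. Lsp1 ran from 3.51 to 4.85 CPM (median 4.65) in wild-type and from 2.65 to 3.82 CPM (median 3.37) in Igf2enh-/- libraries. Its log2 fold change was -0.42, with an adjusted p of 0.135 over 15 libraries and of 0.233 over 13 in edgeR. H19, the maternally expressed long noncoding RNA on the other side of the fragment, reached at most 0.187 CPM, and Ins2, an insulin gene next to Igf2, reached 0.634 CPM in library 15 and at most 0.121 CPM in wild-type libraries. Both fell under the filter.

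Th ran from 1.97 to 5.82 CPM (median 5.17) in wild-type and from 4.63 to 6.23 CPM (median 4.96) in Igf2enh-/- libraries. The groups overlapped, and the lowest value was that of library 20. Over 15 libraries Th differed by 0.16 on the log2 scale (SE 0.162, adjusted p = 0.812 in edgeR), and over 13 by 0.01 (SE 0.0969, adjusted p = 0.989). Slc6a3, the dopamine transporter made by the same midbrain neurons, ran from 0.0301 to 0.465 CPM. Of 17 genes for dopamine synthesis, storage and breakdown, 9 were tested and 0 had an unadjusted p under 0.05 in edgeR's quasi-likelihood test in either fit.

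Over all 15 libraries 5 of the 13875 genes, or 0.0360%, had an adjusted p under 0.05 by edgeR's quasi-likelihood test, and all 5 were lower in Igf2enh-/- mice. They were Glo1, Ciart, Rbm3, ENSMUSG00000096768 and 4930426D05Rik. Before adjustment, 1394 genes (10.0%) had a p under 0.05, of which 686 were higher and 708 lower. With libraries 15 and 20 left out, 6 of 13918 genes passed, or 0.0431%, of which 5 were lower (0.0359%): Glo1, Ciart, Rbm3, Coq10b and Rpl17 fell and Igf2 rose. The fits shared 3 called genes. In the 13 libraries 1304 genes, or 9.37%, had an unadjusted p under 0.05, with 618 higher (4.44%) and 686 lower (4.93%). The groups did not overlap at all in 28 genes (0.202%) over 15 libraries and in 77 genes (0.553%) over 13.

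**Figure D3:**
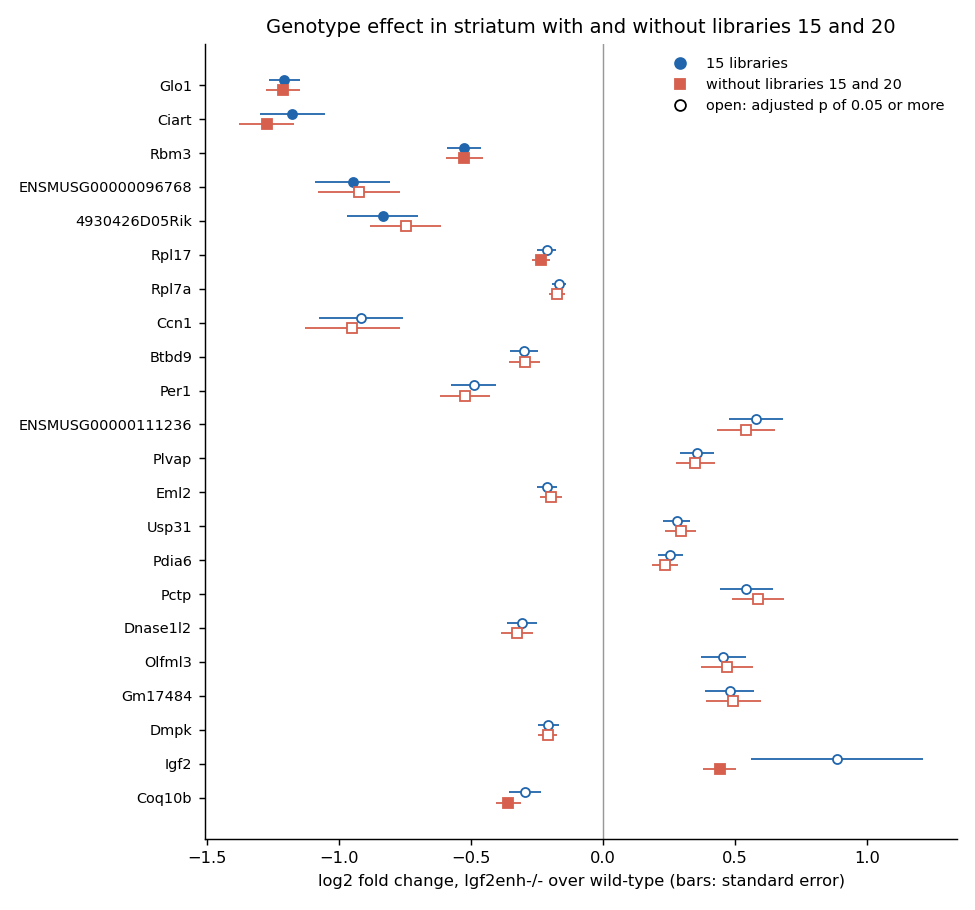
Log2 fold change of Igf2enh-/- over wild-type (horizontal axis, bars are standard errors) for the 20 genes of smallest p over all 15 libraries, and for Igf2 and Coq10b, with all libraries (circles) and without libraries 15 and 20 (squares). Filled symbols have an adjusted p under 0.05. Every gene shown keeps its direction, and Igf2 moves from 0.89 to 0.44.

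Glo1 had the smallest p of all genes in both fits. It encodes glyoxalase 1, the enzyme that clears methylglyoxal, a reactive by-product of glycolysis, and it lies on chromosome 17 from 30592861 to 30612659 in GRCm38. Its level was 82.3, 100.1, 107, 85.9, 86.6, 79.2 and 101 CPM in wild-type libraries 14, 16, 18, 20, 22, 24 and 26. In Igf2enh-/- libraries 13, 15, 17, 19, 21, 23, 25 and 27 it was 39.4, 40.2, 40.9, 40.3, 37.2, 40.0, 39.0 and 40.8 CPM. The highest Igf2enh-/- library lay far below the lowest wild-type library, and the Igf2enh-/- libraries lay closer to each other than the wild-type libraries did. Glo1 fell by 1.21 on the log2 scale (standard error 0.0580, adjusted p = 2.75e-08 in edgeR), to 0.433 of the wild-type level, and by 1.21 without libraries 15 and 20 (adjusted p = 1.27e-06).

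Genes beside Glo1 and copies of it were also examined, some of them chosen after their values were seen. Dnah8, a dynein heavy chain gene of sperm and cilia, starts 11.7 kb from the start of Glo1 and points away from it. It stood below the filter, at 1.21 to 2.24 CPM in wild-type and 0.244 to 0.673 CPM in Igf2enh-/- libraries, without overlap. In the fit without a filter on low counts its log2 fold change was -1.77 (adjusted p = 0.000383 in edgeR). Btbd9, whose start lies 36.2 kb on the other side, ran from 59.5 to 77.9 CPM in wild-type and from 53.5 to 59.0 CPM in Igf2enh-/- libraries. The groups did not overlap, and the log2 fold change was -0.30 (adjusted p = 0.0587 over 15 libraries and 0.111 over 13 in edgeR). Pim1, a kinase gene of the same chromosome, had a log2 fold change of 0.54 (adjusted p = 0.266 over 15 libraries and 0.235 over 13 in edgeR). Of 13 genes tested within 1000 kb of the start of Glo1, 1 passed, namely Glo1, and the median log2 fold change was 0.01.

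Glo1-ps, a processed copy of Glo1 on chromosome 2, ran from 2.92 to 5.49 CPM in wild-type and from 0.0746 to 0.471 CPM in Igf2enh-/- libraries. Reads of Glo1 and of this copy may be hard to separate, so its values are uncertain. Amd-ps4, a processed copy of the S-adenosylmethionine decarboxylase gene on chromosome 4, ran from 1.74 to 4.42 CPM in wild-type and from 0.0781 to 0.406 CPM in Igf2enh-/- libraries. Amd1, the gene it resembles, stood at medians of 44.0 CPM in wild-type and 43.9 CPM in Igf2enh-/- libraries. Both copies lay under the filter, and without a filter their log2 fold changes were -3.95 and -3.57 (adjusted p = 6.79e-08 and 2.88e-07 in edgeR). These log2 values rest on as few as 2 reads in a library. The groups did not overlap for either copy, and their chromosomes are not those of Glo1 or of the deletion.

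**Figure D4:**
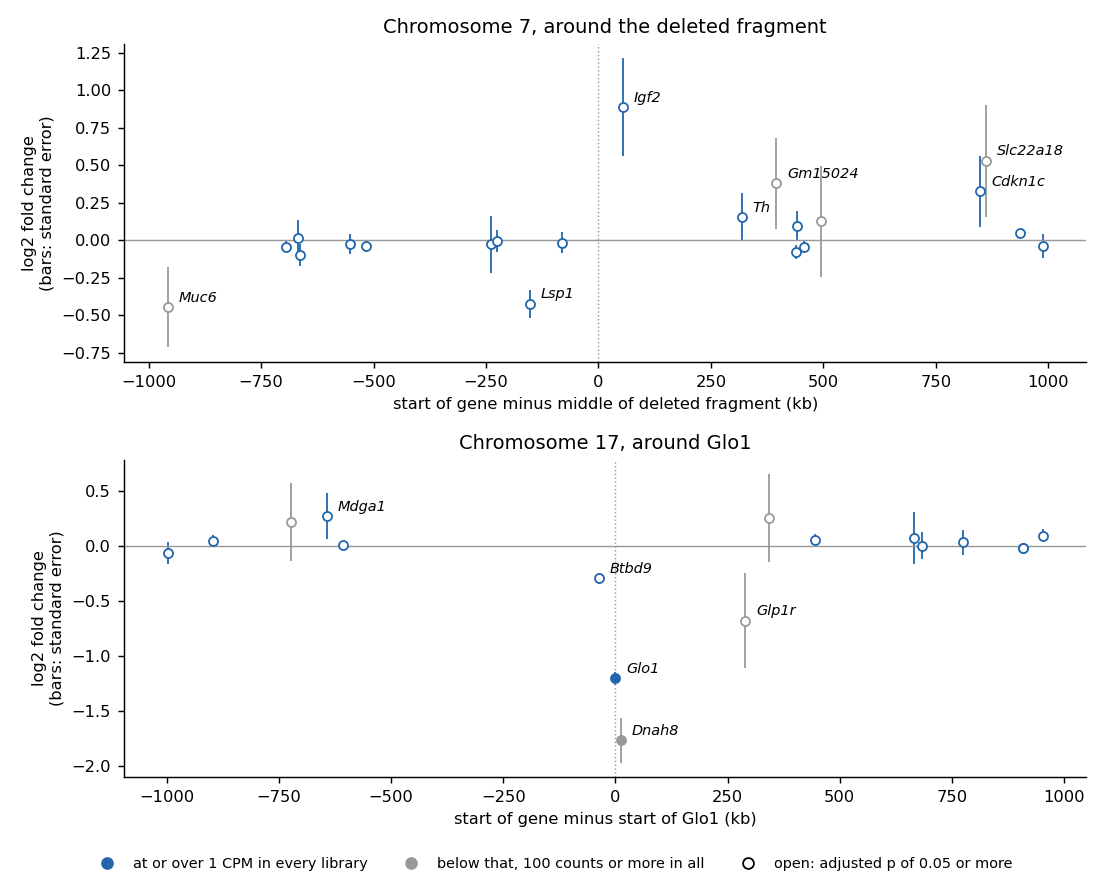
Log2 fold change of Igf2enh-/- over wild-type in striatum (vertical axis, bars are standard errors) against the distance in kb of each gene's start from the middle of the deleted fragment on chromosome 7 (top) and from the start of Glo1 on chromosome 17 (bottom). Blue genes had at least 1 CPM in every library, grey genes did not and had 100 or more counts in all, and open symbols have an adjusted p of 0.05 or more. Glo1 and Dnah8 are the only filled symbols, 11.7 kb apart.

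Ciart, a repressor within the circadian clock also known as Chrono, fell in Igf2enh-/- mice. The clock is a loop in which BMAL1 (gene Arntl) and CLOCK or NPAS2 switch on genes through E-boxes, and the products of Per, Cry, Ciart and Nr1d genes act back on them. Ciart lies on chromosome 3 from 95878500 to 95882257 in GRCm38. Its level was 15.9, 15.5, 18.4, 20.4, 25.8, 22.1 and 23.4 CPM in wild-type libraries 14, 16, 18, 20, 22, 24 and 26. In Igf2enh-/- libraries 13, 15, 17, 19, 21, 23, 25 and 27 it was 7.91, 11.6, 8.71, 7.12, 9.12, 10.4, 7.41 and 7.55 CPM. The highest Igf2enh-/- library, number 15, lay below the lowest wild-type library, and the wild-type females (14, 16 and 18) lay below the wild-type males. Ciart fell by 1.18 on the log2 scale (standard error 0.123, adjusted p = 0.000668 in edgeR), and by 1.27 without libraries 15 and 20 (adjusted p = 0.000103).

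Of 23 clock genes all 23 were tested, and Ciart was the only member to pass. At an unadjusted p under 0.05, 11 were lower and 3 were higher, against 5.10% and 4.94% of all genes, and the median log2 fold change was -0.16. In the 13 libraries 12 were lower and 4 higher, with the same median of -0.16. Across all alternative settings of the fit between 11 and 12 members were lower. The 3 higher ones, Arntl, Clock and Npas2, are among the 5 activators listed. The other activators, Rora and Rorb, had log2 fold changes of -0.05 and -0.19 over 15 libraries. Over 13 libraries these were 0.09 and 0.14, neither with an unadjusted p under 0.05 in edgeR. The lower ones were the repressors Ciart, Per1, Per2, Per3, Cry2, Nr1d1, Nr1d2, Bhlhe40 and Bhlhe41 and the output factors Dbp and Hlf. Cry1, also a repressor, had a log2 fold change of 0.10. Clock genes are known to move together with the time of day. The sources used here do not give the hour at which each mouse was killed, so genotype and hour cannot be told apart for this list.

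Per1, a core repressor that also responds to glucocorticoids, ran from 125 to 180 CPM (median 155) in wild-type and from 94.5 to 128 CPM (median 110) in Igf2enh-/- libraries. In 7 of 8 Igf2enh-/- libraries it lay below every wild-type library, and library 15 overlapped. The log2 fold change was -0.49 (adjusted p = 0.0587 over 15 libraries and 0.0701 over 13 in edgeR). Dbp, a clock output transcription factor, ran from 161 to 242 CPM in wild-type and from 91.9 to 180 CPM in Igf2enh-/- libraries, with 7 of 8 below every wild-type library. Its log2 fold change was -0.54 over 15 libraries and -0.64 over 13, with adjusted p of 0.101 and 0.0581 in edgeR. Nr1d1, which encodes the repressor REV-ERB alpha, ran from 135 to 169 CPM in wild-type and from 77.0 to 134 CPM in Igf2enh-/- libraries. These did not overlap, yet the adjusted p was 0.230 in edgeR, with a log2 fold change of -0.39 (over 13 libraries 0.284 and -0.40). Arntl ran from 35 to 51.5 CPM in wild-type and from 47.1 to 72.2 CPM in Igf2enh-/- libraries. Its log2 fold change was 0.37 (adjusted p = 0.174 over 15 libraries and 0.128 over 13 in edgeR), with 5 of 8 Igf2enh-/- libraries past the wild-type maximum.

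The 250 bases before a transcript start of 3 of these genes are shown because the clock acts on them through E-boxes. They are RefSeq promoters of GRCm38.p6, 5′ to 3′ on the strand of the gene, with each E-box (CACGTG, its own reverse complement) in capitals. The starts are those of the promoter table, and the window shares 29 bases with the full span of Ciart, 147 with that of Dbp and all 250 with that of Per1.
Ciart (chr3:95882229-95882478, minus strand): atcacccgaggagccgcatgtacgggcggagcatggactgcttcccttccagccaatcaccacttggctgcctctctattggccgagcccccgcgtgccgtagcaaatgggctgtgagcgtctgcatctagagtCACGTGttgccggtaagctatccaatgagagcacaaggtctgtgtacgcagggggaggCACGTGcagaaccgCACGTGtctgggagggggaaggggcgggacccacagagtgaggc
Per1 (chr11:69098699-69098948, plus strand): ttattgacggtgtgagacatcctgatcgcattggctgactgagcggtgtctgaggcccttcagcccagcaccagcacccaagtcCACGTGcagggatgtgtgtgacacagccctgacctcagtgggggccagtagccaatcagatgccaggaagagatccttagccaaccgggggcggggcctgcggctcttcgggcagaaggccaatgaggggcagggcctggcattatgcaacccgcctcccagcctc
Dbp (chr7:45704997-45705246, plus strand): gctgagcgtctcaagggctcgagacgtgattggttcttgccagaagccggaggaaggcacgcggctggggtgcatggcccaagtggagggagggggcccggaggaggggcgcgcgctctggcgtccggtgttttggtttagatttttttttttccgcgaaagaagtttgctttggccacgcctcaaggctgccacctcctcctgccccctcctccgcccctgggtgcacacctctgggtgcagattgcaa

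Ciart holds 3 E-boxes in this window, which begin 116, 58 and 44 bases before the transcript start at 95882228. Per1 holds 1, which begins 166 bases before the first of its 2 starts in the table, and Dbp holds none in this window. Of 19 clock genes with an entry in the promoter table, 5 held an E-box in the window of their first promoter (26.3%). Over all 27025 genes of the table, by first promoter, 6.05% did. The share was 20.8% of 24 promoters of immediate-early genes, 12.5% of 24 and 11.5% of 26 for the ER and heat shock lists described below. All were above the share of all genes. The D-box TTATGTAA, searched on both strands, was found in 1 of the 19 and in 0.862% of all genes by first promoter. The cyclic AMP response element TGACGTCA was found in 1 of the 19 and in 1.62% of all genes by first promoter. A match of these letters is a description of the window and not evidence of binding. Neither Glo1 nor any of the Igf2 promoters in the table holds 1 of these motifs within 250 bases.

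Rbm3, a cold-inducible RNA-binding protein gene on the X chromosome, fell in Igf2enh-/- mice in both fits. Its level was 39.2, 49.2, 54.7, 59.3, 56.6, 59.5 and 57.7 CPM in wild-type libraries 14, 16, 18, 20, 22, 24 and 26. In Igf2enh-/- libraries 13, 15, 17, 19, 21, 23, 25 and 27 it was 31.7, 36.2, 34.7, 36.4, 39.6, 40.3, 38.3 and 36.5 CPM. The groups overlapped through wild-type library 14, a female, and 6 of 8 Igf2enh-/- libraries lay below every wild-type library. Rbm3 fell by 0.53 on the log2 scale (standard error 0.0638, adjusted p = 0.00275 in edgeR), and by 0.52 without libraries 15 and 20 (adjusted p = 0.0148). In the 13 libraries the call was lost without library 17 or 24 and without the sex term, with adjusted p up to 0.0775 in edgeR. Cirbp, the related cold-inducible gene, ran from 53.5 to 68.9 CPM in wild-type and from 48.9 to 61.9 CPM in Igf2enh-/- libraries, with overlap. Its log2 fold change was -0.15 (adjusted p = 0.453 over 15 libraries and 0.669 over 13 in edgeR).

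The other called genes passed less firmly. ENSMUSG00000096768, which has no symbol in the name tables, ran from 8.5 to 15.0 CPM (median 9.58) in wild-type and from 3.49 to 8.24 CPM (median 5.46) in Igf2enh-/- libraries. The groups did not overlap, and it fell by 0.95 on the log2 scale over 15 libraries (adjusted p = 0.0231 in edgeR). The adjusted p was 0.0581 without libraries 15 and 20, and the call was also lost without any 1 of libraries 15, 18, 19, 21, 24, 25 or 27, with limma-voom and without the sex term. 4930426D05Rik, a gene of unknown role on chromosome 18, ran from 1.96 to 3.59 CPM in wild-type and from 1.02 to 2.07 CPM in Igf2enh-/- libraries, with 7 of 8 Igf2enh-/- libraries below every wild-type library. It fell by 0.83 (adjusted p = 0.0493 in edgeR), and the call was lost when any single library other than 23 or 26 was left out. In all, the call was lost in 19 of 26 alternatives. These included the fit without libraries 15 and 20, limma-voom and the fit without the sex term.

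Coq10b and Rpl17 passed in the fit without libraries 15 and 20 and not over all 15 libraries. Coq10b, needed for the use of coenzyme Q in mitochondrial respiration, ran from 24.6 to 29.3 CPM in wild-type and from 20.2 to 22.3 CPM in Igf2enh-/- libraries of that fit, without overlap. It fell by 0.36 on the log2 scale (adjusted p = 0.0148 in edgeR), against -0.30 over 15 libraries (adjusted p = 0.0834), and the call was lost without library 17 or 24. Rpl17, a protein of the large ribosomal subunit, ran from 133 to 144 CPM in wild-type and from 112 to 123 CPM in Igf2enh-/- libraries of that fit. It fell by 0.24 (adjusted p = 0.0198 in edgeR), against -0.21 over 15 libraries (adjusted p = 0.0528). Its call in the 13 libraries was lost without any 1 of libraries 16, 17, 18, 19, 23, 24 or 27.

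Genes just outside the threshold of the 15-library fit included both directions. Pdia6, Plvap, Usp31, Pctp and Olfml3 had log2 fold changes of 0.25, 0.35, 0.28, 0.54 and 0.45, with adjusted p between 0.0628 and 0.0691 in edgeR. Plvap encodes a protein of endothelial diaphragms, known from fenestrated vessels, and ran from 10.7 to 14.3 CPM in wild-type and from 13.6 to 16.7 CPM in Igf2enh-/- libraries. Olfml3, a secreted protein gene, ran from 7.10 to 11.0 CPM in wild-type and from 11.2 to 14.1 CPM in Igf2enh-/- libraries. For Olfml3 and Pdia6 all 8 Igf2enh-/- libraries lay above all wild-type libraries, and for Plvap 7 of 8 did. Ccn1, Eml2 and Rpl7a had log2 fold changes of -0.92, -0.21 and -0.17 (adjusted p = 0.0587, 0.0628 and 0.0528 in edgeR), and in all of them the 8 Igf2enh-/- libraries lay below the wild-type libraries. Abca8a, a lipid transporter gene, had a log2 fold change of 0.69 (adjusted p = 0.0709 in edgeR).

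Genes of protein folding in the endoplasmic reticulum (ER) were listed together with sensors and factors of ER stress and with genes of ER degradation. ER chaperones fold and check newly made secreted and membrane proteins. Of 28 genes tested none passed in either fit, and 15 were higher and 1 lower at an unadjusted p under 0.05 in edgeR, against 4.94% and 5.10% of all genes. The median log2 fold change was 0.12, and without libraries 15 and 20 it was 0.10 with 12 higher and 1 lower. The chaperones, disulfide isomerases and J proteins made up 15 of the 28, of which 11 were higher over 15 libraries and 9 over 13. Hspa5, which encodes BiP, the main ER chaperone, ran from 246 to 307 CPM (median 274) in wild-type and from 255 to 379 CPM (median 338) in Igf2enh-/- libraries. Its groups overlapped, with 6 of 8 Igf2enh-/- libraries past the wild-type maximum and a log2 fold change of 0.29 (adjusted p = 0.238 in edgeR), and of 0.24 over 13 libraries (adjusted p = 0.368). Pdia6, a disulfide isomerase, ran from 78.6 to 83.3 CPM in wild-type and from 87.2 to 107 CPM in Igf2enh-/- libraries, without overlap. Calr and Pdia3, which serve glycoprotein folding, had log2 fold changes of 0.19 and 0.18, and Sdf2l1 of 0.32. Atf4, a transcription factor of the stress response, was the lower member at -0.20 (adjusted p = 0.356 in edgeR).

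Of 33 genes of heat shock proteins and their partners 31 were tested, and 8 were higher and 1 was lower at an unadjusted p under 0.05, against 4.94% and 5.10% of all genes, with a median of 0.07. None passed the adjusted test. The counts were 6 and 1 over 13 libraries, with a median of 0.05. Mitochondrial chaperones (Hspd1, Hspe1 and Hspa9), the factors Hsf1 and Hsf2 and the adaptor gene Pdcd6ip are in this list, and the counts were the same in the other 25 genes, which are cytosolic chaperones and cochaperones. Hsp90aa1, the inducible HSP90, ran from 385 to 461 CPM (median 421) in wild-type and from 454 to 521 CPM (median 479) in Igf2enh-/- libraries. In 6 of 8 Igf2enh-/- libraries it was past the wild-type maximum, and the log2 fold change was 0.20 (adjusted p = 0.174 in edgeR). Hspa4l and Hsph1, which help HSP70 release its clients, had log2 fold changes of 0.24 and 0.23. For Hsph1 the lowest wild-type level was that of library 20, at 255 CPM against 337 CPM for the wild-type median. Hspa1a and Hspa1b, the most strongly heat-inducible HSP70 genes, lay under the filter with medians of 1.5 and 1.27 CPM in wild-type and 1.11 and 1.12 CPM in Igf2enh-/- libraries. The core of the heat shock element, GAANNTTC, was found in 7 of 26 promoters of this list (26.9%). It was found in 3 of 24 promoters of immediate-early genes (12.5%) and in 6.78% of all genes by first promoter.

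**Figure D5:**
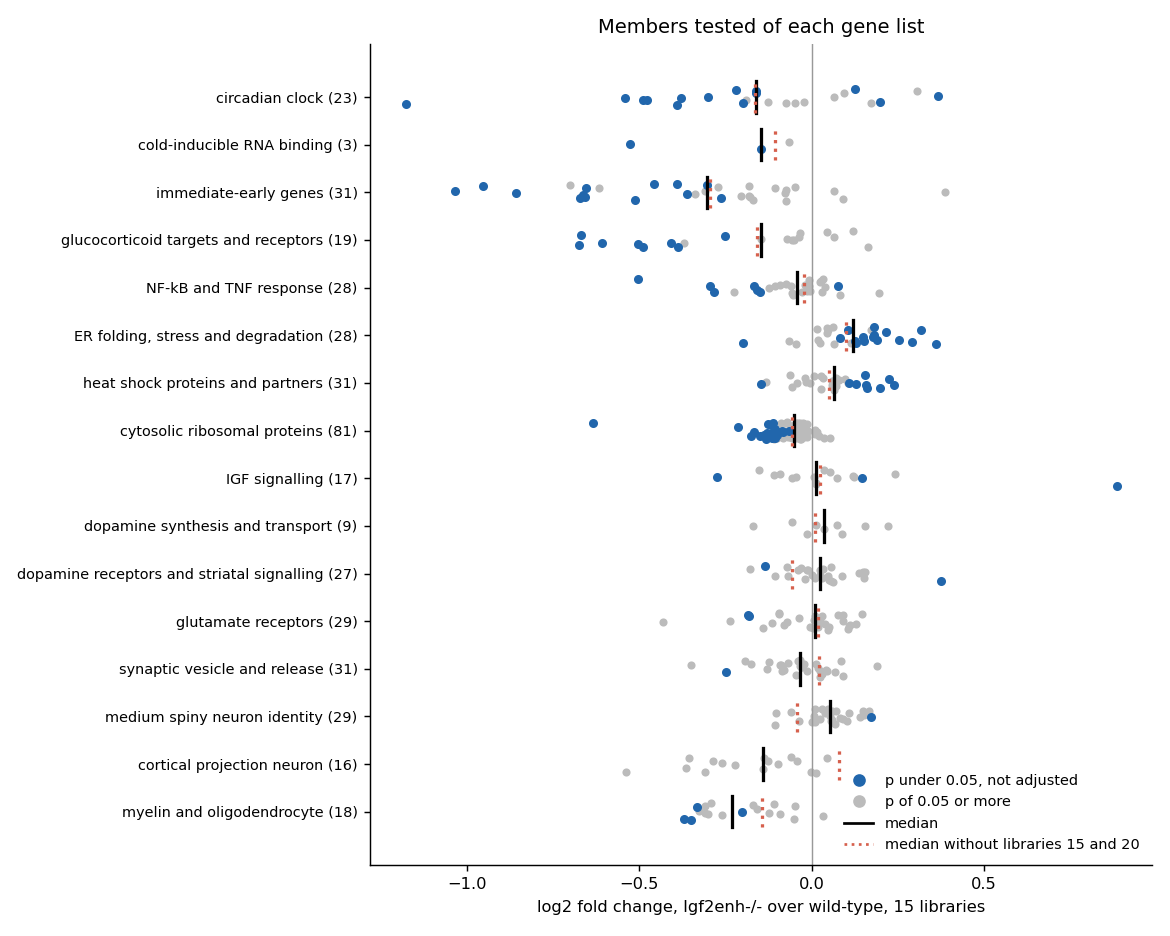
Log2 fold change of Igf2enh-/- over wild-type over 15 libraries (horizontal axis) for each tested member of 16 gene lists (rows, with the number tested). Blue members have an unadjusted p under 0.05, black lines are medians and dotted red lines are medians without libraries 15 and 20. Clock, immediate-early and glucocorticoid genes lie mostly to the left, ER genes to the right, and the medians of medium spiny neuron and cortical projection neuron genes change sides without libraries 15 and 20.

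Immediate-early genes, which are switched on within minutes by neuronal activity, were tested for 31 members and none passed. A negative log2 fold change was found in 28, and 13 were lower and 0 higher at an unadjusted p under 0.05 in edgeR, against 5.10% and 4.94% of all genes, with a median of -0.30. The count was 13 in the 13 libraries too, and 7 when wild-type library 16 was left out. Fos ran from 8.72 to 37.6 CPM (median 17.9) in wild-type and from 3.36 to 18.5 CPM (median 8.88) in Igf2enh-/- libraries. Arc, whose product is trafficked to synapses, ran from 88.9 to 245 CPM (median 152) in wild-type and from 42.0 to 138 CPM (median 71.3) in Igf2enh-/- libraries. The groups overlapped for both, and the highest Fos value was that of library 16. Log2 fold changes were -1.03 for Fos and -0.95 for Arc, with adjusted p of 0.372 and 0.207 in edgeR. Dusp1, a phosphatase that ends MAP kinase signals, had the smallest p of the list, with -0.66 (adjusted p = 0.159 in edgeR) and 6 of 8 Igf2enh-/- libraries below every wild-type library.

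Glucocorticoids are stress hormones whose blood level also follows the time of day. Of 17 tested genes known to be induced by them, 8 were lower and 0 higher at an unadjusted p under 0.05 in edgeR, against 5.10% and 4.94% of all genes, none passed, and the median was -0.25. Over 13 libraries the count was 7. The list also held the 2 receptor genes Nr3c1 and Nr3c2, neither of which had an unadjusted p under 0.05, and with them its median was -0.15. Per1 is a member of this list and of the clock list. Sgk1, a kinase gene, ran from 81.6 to 289 CPM (median 170) in wild-type and from 58.5 to 145 CPM (median 102) in Igf2enh-/- libraries. Ddit4, an inhibitor of mTOR signalling, ran from 35.5 to 78.5 CPM (median 51.0) in wild-type and from 25.3 to 42.7 CPM (median 36.2) in Igf2enh-/- libraries. Both overlapped, with log2 fold changes of -0.67 and -0.61 and adjusted p of 0.389 and 0.209 in edgeR. Fkbp5, a glucocorticoid receptor co-chaperone and a widely used target gene, stood at medians of 60.8 CPM in wild-type and 59.6 CPM in Igf2enh-/- libraries, with a log2 fold change of -0.03.

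Of 28 tested genes of the NF-kB and TNF response, which serve inflammation, 6 were lower and 1 higher at an unadjusted p under 0.05, against 5.10% and 4.94% of all genes, and the median was -0.04. Over 13 libraries the counts were 5 and 0. Nfkbia, the inhibitor that holds NF-kB in the cytoplasm and a member of the glucocorticoid list as well, had a log2 fold change of -0.50 (adjusted p = 0.342 in edgeR). Its highest level, 36.5 CPM, was that of library 20. Tnf itself was at or below 0.0788 CPM in every library.

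Genes of the striatal neurons themselves gave no called gene. Of 29 tested genes of medium spiny neuron identity, 25 had a positive log2 fold change with all 15 libraries (median 0.05) and 6 without libraries 15 and 20 (median -0.04). Drd1 ran from 143 to 407 CPM (median 332) in wild-type and from 226 to 375 CPM (median 335) in Igf2enh-/- libraries. Drd2 ran from 135 to 378 CPM (median 302) in wild-type and from 213 to 433 CPM (median 323) in Igf2enh-/- libraries. The groups overlapped for both receptors. Of 27 genes of dopamine receptors and striatal signalling, 1 was higher (Pde1c, 0.38) and 1 was lower (Ppp1r9b, -0.13) at an unadjusted p under 0.05 in edgeR. Of all genes tested, 4.94% were higher and 5.10% lower. Over 13 libraries 0 of the list were higher and 1 lower. The lowest Pde1c level, 16.9 CPM, was that of library 20, while Ppp1r9b, which encodes the spine protein spinophilin, had a log2 fold change of -0.15 without libraries 15 and 20.

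Among 29 glutamate receptor and scaffold genes, 2 were lower and 0 higher at an unadjusted p under 0.05 in both fits, which is near the 5.10% of all genes that were lower. Among 31 genes of synaptic vesicles and release, 1 was lower in both fits, Marcks, an actin-binding substrate of protein kinase C. Marcks ran from 275 to 438 CPM in wild-type and from 220 to 289 CPM in Igf2enh-/- libraries, with overlap and a log2 fold change of -0.25 (adjusted p = 0.344 in edgeR). The wild-type maximum was that of library 24. Camk2a, a synaptic kinase gene, stood at medians of 2641 CPM in wild-type and 2629 CPM in Igf2enh-/- libraries, and its maximum of 4021 CPM was that of library 20.

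Lists of other cell types also varied between libraries of the same genotype. Of 18 tested genes of myelin and oligodendrocytes, 17 had a negative log2 fold change (median -0.23). At an unadjusted p under 0.05, 4 were lower, against 5.10% of all genes: Cspg4, Mobp, Mal and Mbp. Their summed level was 11683 CPM in library 20 and 10499 CPM in library 22, both wild-type, and between 5465 and 7950 CPM elsewhere. Without libraries 15 and 20 only Cspg4, a marker of oligodendrocyte precursors, was lower, and with single libraries left out the count ran from 2 (without 19, 20, 21, 22 or 27) to 11 (without 26), with 9 without 16 or 17. Of 16 cortical projection neuron genes 0 had an unadjusted p under 0.05, and the median was -0.14 over 15 libraries and 0.08 over 13. Slc17a7, the vesicular glutamate transporter of cortical neurons, ran from 14.0 to 748 CPM in wild-type and from 98.6 to 561 CPM in Igf2enh-/- libraries, which is a wide range within both genotypes. The part of these cell types in the results was not tested beyond the fit without libraries 15 and 20.

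Of 16 genes of endothelial and mural cells, 2 were higher and 3 lower at an unadjusted p under 0.05. Of all genes tested, 4.94% were higher and 5.10% lower, the shares to set beside each list of this paragraph. Cldn5, a tight junction protein of brain vessels, had a log2 fold change of 0.36, and Kdr, a receptor of vascular endothelial growth factor, of 0.35. The lower ones were Notch3, a receptor of mural cells, at -0.28, and the endothelial genes Tek at -0.18 and Slco1a4 at -0.16. Endothelial members thus went in both directions. Over 13 libraries 3 were higher and 1, Notch3, was lower. Over 15 libraries the adjusted p of Cldn5, Kdr and Notch3 were 0.374, 0.399 and 0.224 in edgeR. Of 12 microglial genes 1 was lower, P2ry12 at -0.18, and of 12 astrocyte genes 0 had an unadjusted p under 0.05 over 15 libraries. Over 13 libraries P2ry12 was the 1 lower microglial gene, and 2 astrocyte genes were higher, among them Aldh1l1 at 0.14. Of 12 meningeal genes other than Igf2, 1 was higher (Col1a1, 0.33) and 1 was lower (Ptgds, -0.31), and Col1a1 was highest in library 15 at 9.07 CPM. Over 13 libraries Col1a1 was the higher one (0.21) and Fmod the lower one (-0.60).

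Of 81 tested genes of cytosolic ribosomal proteins, a list added after the values were seen, 21 were lower and 0 higher at an unadjusted p under 0.05, against 5.10% and 4.94% of all genes, with a median of -0.05. In the 13 libraries 22 were lower, 1 of which, Rpl17, passed. The differences were small: beside Rps4l at -0.63, no member was lower by more than that of Rpl17 (-0.21). Ribosomal protein genes have many processed copies and the way shared reads were counted can affect them, Rps4l included, so single values are uncertain.

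No gene passed a test of whether the genotype effect differed between females and males. The genotype by sex term gave 0 of 13875 genes with an adjusted p under 0.05 in edgeR's quasi-likelihood test and 1 with the likelihood ratio test. An unadjusted p under 0.05 was found for 355, against 1394 for genotype in the fit without this term. Each sex and genotype held only 3 or 4 libraries, so the absence of calls does not show equal effects. The gene of smallest p was Kirrel2, whose effect in males minus females was -0.54 on the log2 scale (adjusted p = 1.00 in edgeR). For Ciart the difference in mean log2 CPM was -0.87 in females and -1.38 in males, and the test of their difference gave an adjusted p of 1.00 in edgeR. For Glo1 these differences were -1.25 and -1.14, and for Rbm3 they were -0.42 and -0.60.

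A test of whether striatum and frontal cortex differed in their genotype effect gave 0 of 13414 genes with an adjusted p under 0.05 in edgeR. An unadjusted p under 0.05 was found for 405, against 1394 of 13875 for genotype in striatum. The absence of calls does not show equal effects in the 2 regions. The 27 libraries were treated as independent, since the labels do not say which came from the same mouse. Any pairing of the regions within mice was therefore not taken into account. The gene of smallest p was Rpl28, a ribosomal protein gene, with a log2 difference of -0.22 (striatum minus cortex). For Rpl17 this difference was -0.24 (standard error 0.0726, adjusted p = 1.00), with log2 fold changes of 0.02 in frontal cortex and -0.21 in striatum. For Glo1, Ciart and Rbm3 the differences were -0.05, 0.06 and 0.01, with standard errors of 0.0892, 0.184 and 0.0879.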

How the data were processed

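RNA of 15 striatal samples was sequenced by the study as single-end reads from ribosome-depleted libraries. Trimming was by Trim Galore 0.5.0 and alignment to GRCm38 by STAR, with GENCODE annotation. The authors deposited raw counts per gene, not normalized, for 52636 identifiers. The counting tool's strand setting is not given in the sources used here, so overlapping or antisense genes may share reads. The table held 0 columns of other series.

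Samples were grouped by genotype, region, sex and library number from their labels. Genes at 1 CPM or more in all libraries were scaled by TMM and tested with edgeR 4.0.16 in R 4.3.3 (quasi-likelihood F-test), with sex and genotype as terms and Benjamini-Hochberg adjustment over all genes tested. The study's methods name the same filter and terms with the likelihood ratio test, which was an alternative. The fit was repeated, filter and TMM included, without libraries 15 and 20. Interaction terms tested sex and region. For Igf2 an exact two-sided permutation test over libraries was added. The script was tested on simulated data in which 200 of 13875 genes differed by a log2 fold of 0.8. It found 90% of them with 15 libraries and 88% with 13, with 9 false calls in each. Smaller changes, which most genes named here have, and libraries with transcripts of other tissue were not simulated. Other alternatives were limma-voom (limma 3.58.1), DESeq2 1.42.0 as a test or for its size factors alone, total count scaling, filterByExpr, no filter, a filter over all 27 libraries, no sex term, terms for RNA concentration or for library numbers from 21 on, and leaving out each library.

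The genes named are Igf2, Glo1, Ciart and Rbm3, called genes, the 20 of smallest p in either fit, Th, Ins2, H19, Camk2a and Marcks, up to 5 members of smallest p from each of 26 lists, and the top gene of each interaction. Dnah8, the processed copies of genes and further list members were named after their values were seen. Further genes of this rule are not reported here. The members and lists were chosen with earlier results of these data known. Each library is 1 mouse by the study's description, and depth limits genes near 1 CPM, where a library holds 23.7 to 33.9 reads. Promoter sequences and gene positions are from RefSeq (GRCm38.p6), with 25998 identifiers matched to a position. Primers and the distances between genes were placed on NCBIM37 with GENCODE vM1. Figures were drawn with matplotlib 3.10.9.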

Additional observations from a re-analysis of the deposited data

Results flagged for a closer look

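In 220 groups (84 genes and 26 list means in each genotype), the gap of the most extreme library to its nearest neighbour, as a share of the whole range of its group, was compared with Dixon's 95% critical value. Chance alone marks about 1 in 20 such groups if they are independent and normally distributed, and 18 were marked. The genes and lists overlap and were chosen with earlier results known, so this count is a description and not a test. Of the 18, 6 were library 20 and 4 were library 15, which had both been singled out beforehand for transcripts of other tissue.

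Library 15 was far above the other Igf2enh-/- libraries for Igf2 (gap share 0.840) and Coq10b (0.579), and for the mean log2 levels of the choroid plexus list (0.747) and of the meningeal list without Igf2 (0.774). Library 20 was far below the other wild-type libraries for Tob1 (0.570), Hspa4 (0.626), Hsph1 (0.593), Th (0.706) and the mean of the medium spiny neuron list (0.601), and far above them for Gfap (0.618). Library 17 was lowest of the Igf2enh-/- libraries for Plvap (0.637) and highest for Olfml3 (0.560). Library 19, an Igf2enh-/- male, was highest for Mdga1 (0.607) and for the means of the striatal interneuron list (0.759) and of the list of olfactory and septal neighbours (0.722). In wild-type mice, library 18 was highest for ENSMUSG00000096768 (0.652), library 24 for Marcks (0.598) and library 22 for the mean of the ER chaperones (0.646).

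The value of Th that stood apart was 1.97 CPM, against at least 4.23 CPM in every other striatal library, and without libraries 15 and 20 its log2 fold change was 0.01. The value of ENSMUSG00000096768 in library 18 was 15.0 CPM, against a wild-type median of 9.58 CPM, and its adjusted p rose above 0.05 in edgeR when library 18 was left out. The values of the ER chaperone list in library 22 lie on the side of the Igf2enh-/- libraries, with a summed level of 2873 CPM.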

How the results depend on the processing

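The number of called genes depended on the test. Against 5 genes over 15 libraries, the likelihood ratio test gave 56 (19 higher and 37 lower), DESeq2 112 (44 and 68), filterByExpr 13, no filter 10 and a term for RNA concentration 8, while limma-voom and the fit without a sex term gave 3. Against 6 genes in the 13 libraries, these were 74 with the likelihood ratio test, 110 with DESeq2, 13 with total count scaling, 11 with filterByExpr, 15 without a filter and 16 with RNA concentration. Leaving out single libraries gave 3 to 8 genes and, in the 13 libraries, 2 to 17. The 28 genes without overlap became 77 without libraries 15 and 20, and 32 to 59 with single libraries left out. The genotype by sex term gave 1 gene with the likelihood ratio test. Without libraries 15 and 20 the log2 fold change of Igf2 was 0.44 and it was called, and with single libraries left out it ran from 0.46 (without library 15, called) to 0.97. DESeq2 gave Igf2 no adjusted p over 15 libraries. Calls of Glo1 and Ciart held in every alternative of both fits. Over 90 results of a chosen set of genes, 2277 of 2409 values kept their side of the threshold. The call was lost in 48 and gained in 84, and 0 changed direction. Not every gene named here is in that set, and some outside it changed direction without libraries 15 and 20. Among them were Rora (-0.05 to 0.09), Rorb (-0.19 to 0.14) and Slc17a7 (-0.36 to 0.03). The cause of these moves was not tested. No paired analysis of striatum and cortex was run, because the labels do not say which libraries came from the same mouse.

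Depth limits genes near 1 CPM. The hour of death and the borders of the dissection are not given per library in the sources used here. Libraries 15 and 20 carry transcripts of other tissue, and leaving them out removes 1 mouse of each genotype. Counts of list members rest on unadjusted p-values, and members of a list are not independent of each other.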
